A study of Mytilus galloprovincialis with 16 samples.

Results

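Of the 1920 cDNA clones on the array, 25 (1.3%) rose in the male mantle of the mussel Mytilus galloprovincialis both from stage 2 to stage 3 and from stage 3 to stage 4, the spawning stage. They were chosen from the log2 ratios of later over earlier stage in the deposited series table, averaged over the 2 spots of a clone. A clone was included when its mean ratio over 4 arrays was at least 0.3 in both steps and the ratio was positive on all 4 arrays of each step. On its own, the condition was met by 262 clones (13.6%) for stage 3 over stage 2 and by 273 clones (14.2%) for stage 4 over stage 3. The ratios of these 8 arrays chose the clones and are given as a description, with no test. The other 8 arrays, which set stage 2 and stage 4 against stage 1, were not used in the choice and carry the tests.

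In mussels the gonad grows inside the mantle, where follicles fill with germ cells as the season advances and empty when the animal spawns. The RNA of the male mantle is therefore a mixture of that of sperm-forming cells at successive steps and that of the connective, storage and muscle cells around them, and the balance of these cells shifts over the reproductive cycle. A clone can change in such a tissue because a cell type becomes more or less frequent or because its cells hold more or less of the transcript, and these cannot be told apart in bulk RNA. The clones are cDNA probes of expressed mussel genes, printed in duplicate on glass. The files and tables used here pair them with no gene and no sequence, so that clones are named by plate and well, no function can be given, and marker genes of the testis or of other mantle cells could not be checked.

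Each of the 16 dual-colour arrays compared the mantle RNA of a single male of one stage with that of a single male of another. The stages were stage 1 (early gonad, sampled in November), stage 2 (development, January), stage 3 (ripe, February) and stage 4 (spawning, March), all untreated animals from 1 wild lagoon population. Stage and sampling month, with the season, cannot be told apart. The arrays formed a loop of 4 pairs of stages, named Stage2/Stage1, Stage3/Stage2, Stage4/Stage3 and Stage4/Stage1, with 4 arrays each, and the later stage was in Cy5 on 2 arrays of each pair and in Cy3 on the other 2. For Stage3/Stage2 replicate 1 the labels give different months for 1 channel, and the stage of its title was used. The labels do not say whether an animal was used on more than 1 array, so the spread between arrays may in part be technical.

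The 4 Stage4/Stage1 arrays stood apart from the rest. Across all clones, the log2 ratios of the 6 possible couples of Stage4/Stage1 arrays had a median correlation of 0.0504 and a range of -0.229 to 0.188. The Stage3/Stage2 arrays had a median of 0.781, the Stage4/Stage3 arrays one of 0.745 and the Stage2/Stage1 arrays one of 0.489. The duplicate spots of a clone correlated at 0.325 to 0.708 on the Stage4/Stage1 arrays and at 0.573 to 0.939 on the others. These correlations run across clones, which share arrays and are not independent replicates. The mean ranks of the 1920 clones in the stage 1 channel of these arrays correlated at 0.896 with those of stage 1 on the Stage2/Stage1 arrays and at 0.952 with those of stage 4 on the Stage4/Stage3 arrays. They also correlated at 0.942 and 0.933 with the channels of stage 2 and at 0.937 and 0.915 with those of stage 3. Stage 1 on the Stage2/Stage1 arrays correlated at only 0.866 to 0.914 with the channels of all other pairs. Whether a mix-up of samples or something else is behind these values cannot be settled from the files used here. The values of stage 4 against stage 1 carry that doubt. Every result below that uses stage 4 against stage 1 rests on these arrays. The fit for stage 2 against stage 1 takes part of its error from them too. The median SD over all clones was 0.156 for Stage4/Stage1 and 0.215 for Stage2/Stage1. The results for stage 2 against stage 1 are also given without each of these arrays in turn, but not without all 4.

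From stage 2 to stage 3 the mean log2 ratios of the 25 clones ran from 0.31 to 1.00 with a median of 0.41, and from stage 3 to stage 4 from 0.32 to 1.79 with a median of 0.47. In these deposited values the step to spawning was the larger of the 2 in 19 clones. In values recomputed from the scanner intensities the order was reversed in several of them, among them Myt01-014A03 and Myt01-015E01. The count of 19 thus depends on the processing. In the deposited values the step to spawning reached 1, a doubling of relative abundance, in 6 clones, against 1 clone for the step to the ripe stage. In 12 clones both mean ratios were under 0.5. The plot of both mean ratios shows these 12 near the corner set by the thresholds and the other 13 farther out along 1 or both axes.

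**Figure D1:**
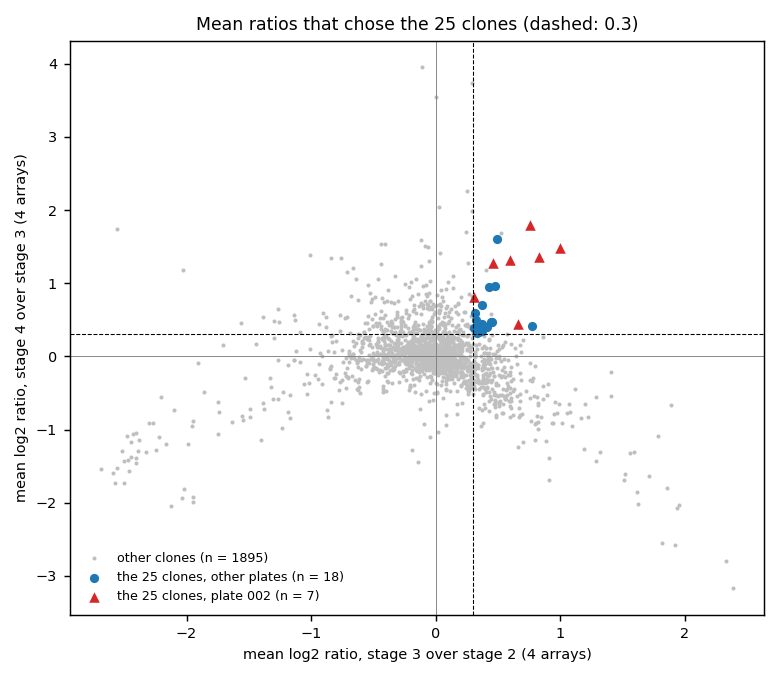
Mean log2 ratio of each of the 1920 clones for stage 3 over stage 2 (x axis) and stage 4 over stage 3 (y axis), each over 4 arrays, with the 0.3 thresholds dashed. The 7 clones of plate 002 (red triangles) and 18 of other plates (blue) lie in the upper right corner, and the 8 grey clones there were not positive on all 8 arrays.

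Myt01-002H11 had the largest sum of the 2 mean ratios. Its stage 3 over stage 2 ratios were 0.46, 1.16, 0.81 and 0.59 on replicates 1 to 4 (mean 0.76 ± 0.31, SD, n = 4). Its stage 4 over stage 3 ratios were 1.11, 2.00, 1.70 and 2.37 (1.79 ± 0.53, SD, n = 4). Every stage 4 over stage 3 ratio but that of replicate 1 was above all of its stage 3 over stage 2 ratios. These arrays chose the clone, so this order is a description only. Myt01-002D03 came next, with 0.39, 1.88, 0.95 and 0.79 for stage 3 over stage 2 (1.00 ± 0.63, SD, n = 4). For stage 4 over stage 3 it had 0.94, 1.67, 1.40 and 1.93 (1.48 ± 0.43, SD, n = 4), and the values of the 2 steps overlapped in this clone too.

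At the lower end, the members nearest above the threshold were Myt01-008C03, with mean ratios of 0.31 and 0.39, and Myt01-002E09, with 0.31 and 0.81. The clones nearest below it were Myt01-018F01, with 0.30 and 0.32, and Myt01-001H11, with 0.29 and 0.83, so that the threshold separated clones that differed by about 0.01 in 1 mean. Leaving out the condition on the sign gave 33 clones. In values recomputed from the scanner intensities, all 25 clones were again positive on all 8 arrays of these steps, and 17 of the 25 met the rule. The lower mean of the other 8 was then 0.18 to 0.28. By dye, the median of the clones' mean ratios was 0.45 with stage 3 in Cy5 and 0.39 with it in Cy3, and 0.61 with stage 4 in Cy5 and 0.43 with it in Cy3, over 2 arrays each.

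**Figure D2:**
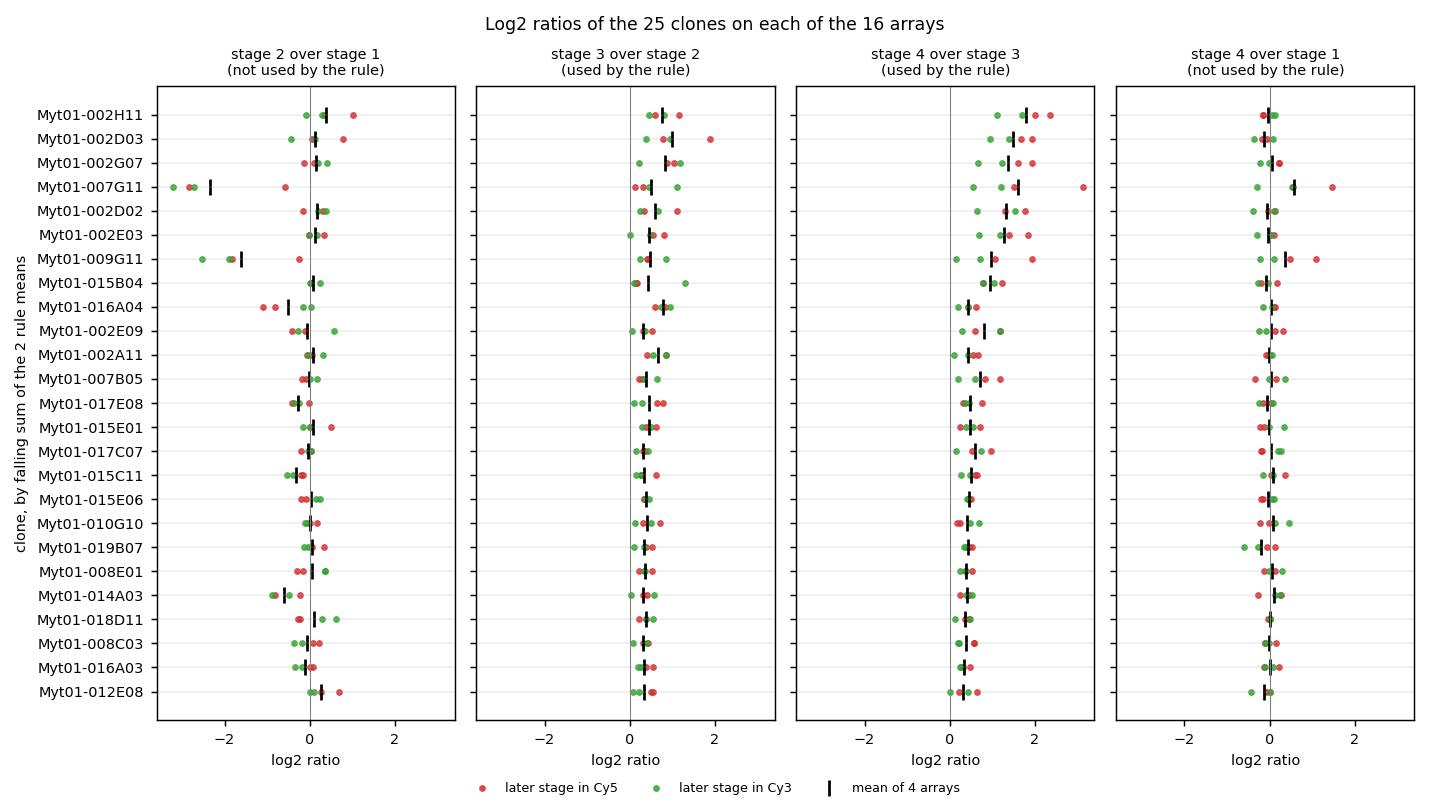
Log2 ratio (x axis) of each of the 25 clones (rows, by falling sum of the 2 chosen means) on the 4 arrays of each pair of stages; colours give the dye of the later stage and black ticks the mean of 4 arrays. The middle panels hold the arrays that chose the clones, where all points are positive, and the outer panels those that did not, where 3 clones lie clearly below 0 for stage 2 over stage 1 and most of the others scatter around 0.

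The change of these clones before the rise, at the onset of gonad development, was read from stage 2 against stage 1. None of the 25 clones was higher in stage 2 and 3 were lower, namely Myt01-007G11 (5.07-fold), Myt01-009G11 (3.09-fold) and Myt01-014A03 (1.52-fold). Among all clones, 78 (4.06%) were higher and 70 (3.65%) lower by the same limma test (adjusted p below 0.05), or 7.71% in all. The other 22 clones lay between -0.51 and 0.38 on the log2 scale. Of the 25, 14 had a fitted change above 0 (45.1% of all clones) and 11 below, and their median change was 0.018, beside -0.021 for all clones. At an unadjusted p below 0.05 there were 7 of the 25, and 442 of all clones (23%). The ratio was positive on all 4 arrays in 1 clone, Myt01-012E08 (14.6% of all clones), negative on all 4 in 5 (13.6% of all clones) and of mixed sign in 19. The 5 were the 3 called clones with Myt01-015C11 and Myt01-017E08, and these last 2 and Myt01-012E08 are named after their values were seen. These signs are those of the scanner values. In the deposited table Myt01-012E08 was at -0.045 and Myt01-017E08 at 0.195 on replicate 3, so that their signs were mixed. The 3 called clones and Myt01-015C11 were negative on all 4 arrays there too. Myt01-015C11 and Myt01-017E08 were well above background in neither stage on any Stage2/Stage1 array, so their ratios there are readings near background. The 95% interval lay above 0 in 1 clone (11.9% of all clones) and below 0 in 6 (11.1% of all clones).

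Myt01-007G11 fell the most. On Stage2/Stage1 replicates 1 to 4 its log2 ratios were -2.72, -2.84, -3.21 and -0.59, and its net intensity was 4643, 2169, 3379 and 758.5 in stage 1 against 556.5, 453.5, 345.5 and 1109 in stage 2. Replicates 1 to 3 were close to each other and replicate 4 was much nearer to 0, and on that array the stage 2 channel was the brighter one before normalization. In the stage 1 channel of replicate 4, 24.2% of all clones were well above background, the lowest share of any Cy3 channel. In that of replicate 3 it was 23.9%, the lowest of any Cy5 channel. The part of these weak channels in the ratios was not tested. The fitted change was -2.34 ± 0.40 (SE; limma adjusted p = 0.00836). This SE pools the spread of both tested pairs of stages. The SD of the ratios of Myt01-007G11 was 1.18 over the Stage2/Stage1 arrays and 0.72 over the Stage4/Stage1 arrays. The call was lost without Stage2/Stage1 replicate 2 (limma adjusted p = 0.0511), at a change of -2.18.

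Myt01-009G11 moved like Myt01-007G11 at a lower brightness. Its ratios were -1.89, -1.82, -2.53 and -0.26, again with replicate 4 nearest to 0, and its net intensity was 338, 302.5, 655.5 and 109 in stage 1 against 71, 66.5, 104.5 and 107 in stage 2. The fitted change was -1.63 ± 0.32 (SE; limma adjusted p = 0.0163), with an SD of 0.96 over the Stage2/Stage1 and 0.56 over the Stage4/Stage1 arrays. These 2 clones had ratios of the same sign on all 16 arrays, 8 of which chose them, and on 15 of the 16 the ratio of Myt01-007G11 was the larger in size. Whether they derive from the same gene is not given in the tables used here.

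Myt01-014A03 was called as well, outside the limit of 2 clones set for naming, and is named after its values were seen. Its ratios of -0.49, -0.82, -0.88 and -0.24 were all negative, and replicate 4 was again the smallest (-0.61 ± 0.13, SE; limma adjusted p = 0.0209). The calls of Myt01-009G11 and Myt01-014A03 were each lost without Stage2/Stage1 replicate 1, 2 or 3, with limma adjusted p of 0.0575 to 0.104. Without any one of the Stage4/Stage1 arrays all 3 clones stayed called, with the rest of those arrays still in the fit. Scaling the arrays to a common spread left only Myt01-007G11, and median centring in place of print-tip loess lost Myt01-014A03 and called 4 other members, 3 higher and Myt01-015C11 lower.

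**Figure D3:**
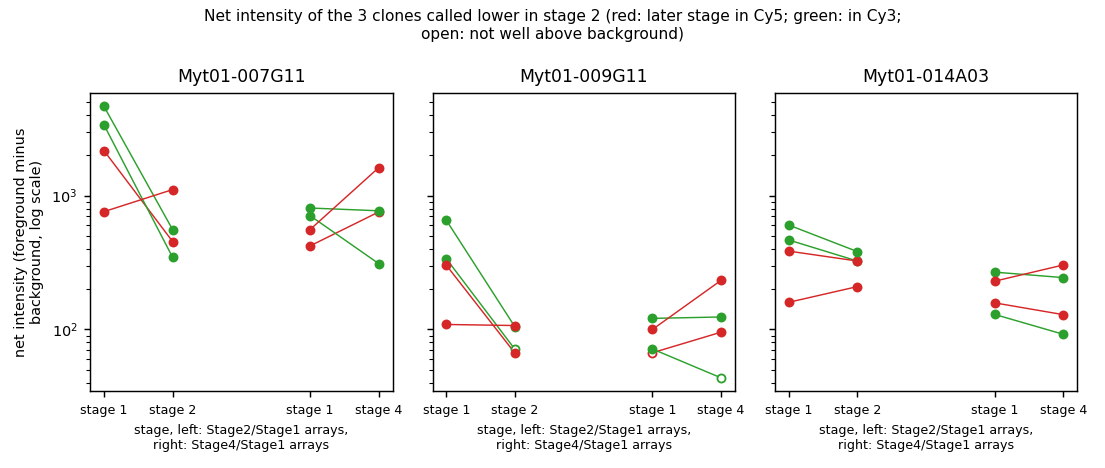
Net intensity (foreground minus background, logarithmic y axis) of the 3 clones called lower in stage 2, with 1 line per array joining the earlier and the later stage on the Stage2/Stage1 arrays (left) and the Stage4/Stage1 arrays (right); open points were not well above background. On replicates 1 to 3 of the Stage2/Stage1 arrays each clone was dimmer in stage 2, and on replicate 4 only Myt01-009G11 was, at 107 against 109. On the Stage4/Stage1 arrays the lines run in both directions.

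Myt01-007G11 fell to stage 2 before the 2 steps that chose it. It had mean ratios of 0.50 ± 0.43 for stage 3 over stage 2 and 1.60 ± 1.10 for stage 4 over stage 3 (SD, n = 4). Single ratios for stage 4 over stage 3 were 1.22, 3.14, 0.54 and 1.51, so the size of this step differed widely between arrays. Myt01-009G11 had 0.48 ± 0.27 and 0.96 ± 0.75 (SD, n = 4), with single values of 0.71, 1.92, 0.14 and 1.07 for stage 4 over stage 3. In both clones the largest value was that of replicate 2 and the smallest that of replicate 3. Myt01-014A03 rose by smaller amounts, 0.32 ± 0.23 and 0.41 ± 0.12 (SD, n = 4).

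For clones that were dim in 1 stage on every array of a pair, only a bound on the ratio was measured. A clone was taken as well above background when at least 1 of its spots had a foreground over the local background median plus 2 SDs of that background. On the Stage2/Stage1 arrays 9 of the 25 clones did not reach this in stage 1 on any array (54.1% of all clones), and 3 of the 9 did not in stage 2 either. Myt01-002H11 was among the remaining 6. Its ratios were 0.29, 1.01, -0.10 and 0.33, highest on replicate 2 and below 0 on replicate 3. The mean log2 signals were 8.10 in stage 2 and 7.72 in stage 1, a ratio of 1.30 that is a lower bound only as regards the dim stage 1 signal and does not cover the spread between arrays. The 95% interval of the log2 change was 0.05 to 0.72, and the clone was not called (limma adjusted p = 0.159). For Myt01-012E08 the ratio was 1.20, with an interval of -0.0050 to 0.53 (limma adjusted p = 0.225), and for the other 4 the bound was under 1. Bounds were taken on channel signals after loess and quantile normalization of mean brightness.

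Stage 4 was compared with stage 1 to set the spawning against the early gonad. None of the 25 clones passed the test, and neither did any of the 1920 clones (0%), with 23 clones (1.2%) at an unadjusted p below 0.05 and none of the 25 among them. All 25 clones had ratios of mixed sign over the 4 arrays, whereas 4.95% of all clones were positive and 5% negative on all 4. The fitted changes ran from -0.20 to 0.56 with a median of 0.0056, beside 0.0058 for all clones, and 13 were above 0 (52.7% of all clones). The highest were those of Myt01-007G11, 0.56 ± 0.40 (SE), and Myt01-009G11, 0.36 ± 0.32 (SE), and the lowest those of Myt01-019B07, -0.20 ± 0.12 (SE), and Myt01-002D03, -0.14 ± 0.16 (SE), all with a limma adjusted p of 0.9996.

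The single ratios of Myt01-007G11 for stage 4 over stage 1 were 0.55, -0.30, 0.53 and 1.46, and those of Myt01-009G11 were 0.47, -0.23, 0.11 and 1.08. In both, replicate 2 was negative and replicate 4 the highest. Those of Myt01-019B07 were -0.05, -0.28, -0.60 and 0.12, with 3 arrays below 0. Those of Myt01-002D03 were -0.19, 0.08, -0.37 and -0.06. The 95% intervals of all 25 clones held 0, while those of 0.729% of all clones lay above it and 0.469% below. Their upper limits were 1.45 for Myt01-007G11, 1.08 for Myt01-009G11 and no more than 0.41 for the other 23, and the lowest of all lower limits was -0.50. These limits hold for the arrays as labelled.

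The rise from stage 2 to stage 4 could be measured again without the arrays that chose the clones, as the change from stage 1 to stage 4 minus that from stage 1 to stage 2. By this route 1 of the 25 clones was higher in stage 4 and none was lower, whereas 22 of all clones (1.15%) were higher and 22 (1.15%) lower, or 2.29% in all. The clone was Myt01-007G11, at 2.90 ± 0.56 (SE) or 7.48-fold (limma adjusted p = 0.0382), beside a change of -2.34 from stage 1 to stage 2. Of the 25 clones, 12 had a change above 0 (54.5% of all clones) and 13 below, with a median of -0.00035 beside 0.023 for all clones. At an unadjusted p below 0.05 there were 6 of the 25 and 242 of all clones (12.6%). The call of Myt01-007G11 was lost without each of 7 of the 8 arrays in turn, all but Stage2/Stage1 replicate 4, with limma adjusted p of 0.0513 to 0.128 and changes of 2.60 to 3.19. It was also lost with median centring, with scaling between arrays and without background correction (limma adjusted p of 0.0667 to 0.0948).

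Myt01-009G11 followed at 1.98 ± 0.45 (SE; limma adjusted p = 0.0603) and Myt01-014A03 at 0.70 ± 0.18 (SE; limma adjusted p = 0.0871), and neither passed the test. The 4 ratios for stage 4 over stage 1 lay above all 4 for stage 2 over stage 1 in Myt01-007G11, Myt01-009G11 and Myt01-015C11 (5% of all clones) and below all 4 in none of the 25 (3.91% of all clones). In Myt01-014A03 they overlapped on 1 array, Stage4/Stage1 replicate 1. The 95% interval lay above 0 in 5 clones, Myt01-007G11, Myt01-009G11, Myt01-014A03, Myt01-015C11 and Myt01-016A04 (5.89% of all clones), and below 0 in 1, Myt01-012E08 (6.72% of all clones). Myt01-015C11, Myt01-016A04 and Myt01-012E08 had limma adjusted p of 0.228, 0.365 and 0.370 and were not called. Myt01-015C11 was not well above background in either stage on any of the 8 arrays, and Myt01-016A04 in neither stage on the Stage4/Stage1 arrays.

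The values of the 2 routes from stage 2 to stage 4 are set side by side as a description and not as a test. The sum of the 2 direct mean ratios comes from the arrays that chose the clones, so that the choice itself favoured high sums, and its own error is not counted. It was 0.42 to 2.35 in scanner values with a median of 1.07. Through stage 1 the same clones lay between -0.41 and 2.90. In 21 of the 25 the 95% interval of the route through stage 1 lay below the clone's own sum, in 4 it held the sum, and in none did it lie above. The 4 were Myt01-007G11, Myt01-009G11, Myt01-014A03 and Myt01-015C11, all of which were negative on all 4 arrays for stage 2 over stage 1, the last of them near background throughout. The route through stage 1 subtracts the stage 2 over stage 1 ratio, so this sign is part of the route value and no separate trait. Among all clones the interval lay below the sum in 338 (17.6%) and above it in 371 (19.3%). Among the 205 other clones with a sum at least as large as the lowest of the 25 it lay below in 148 (72.2%), and these too were taken for a high sum. The median distance from the estimate to an interval limit was 0.36, and the count of 21 was 19 to 22 under the other settings tried.

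**Figure D4:**
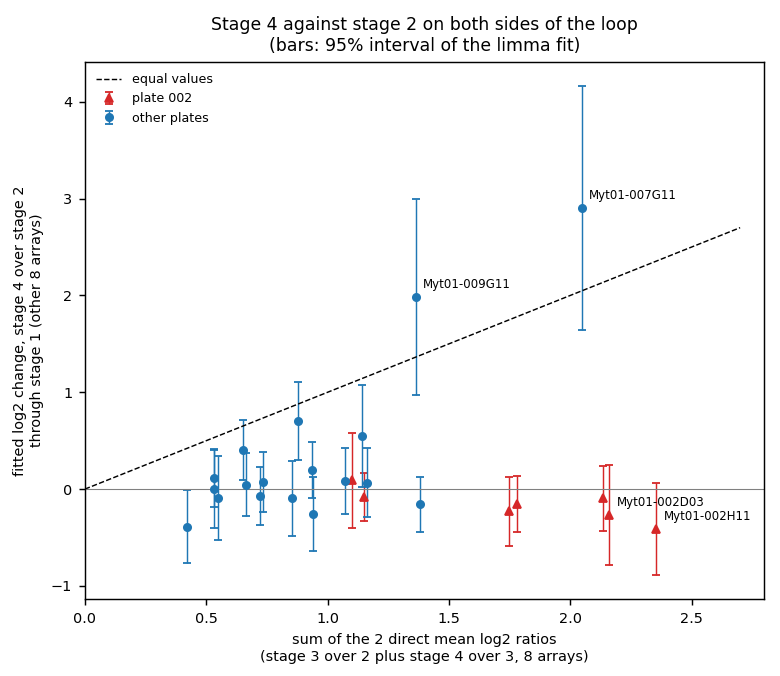
Fitted log2 change from stage 2 to stage 4 through stage 1 with its 95% interval (y axis, 8 arrays not used in the choice) against the sum of the 2 direct mean ratios (x axis, the 8 arrays that chose the clones), both from scanner values; the dashed line marks equal values. The intervals of 21 of the 25 clones end below the line, and those of Myt01-007G11 and Myt01-009G11 hold it.

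Both clones with the largest sums had a change below 0 by the other route. Myt01-002H11 had a sum of 2.35 and a change of -0.41 (95% interval -0.89 to 0.06) through stage 1, where its stage 1 signal on the Stage2/Stage1 arrays was not well above background and its ratio to stage 2 is only a bound. Myt01-002D03 had a sum of 2.16 and a change of -0.27 (95% interval -0.78 to 0.25). By contrast, Myt01-007G11 had a sum of 2.05 inside its interval of 1.64 to 4.16, and Myt01-009G11 a sum of 1.36 inside its interval of 0.97 to 3.00. In a single model over all 16 arrays, which forces the pairs of stages to add up around the loop and includes the arrays that chose the clones, the 25 clones had a median of 0.58 from stage 2 to stage 4, with 7 called higher beside 61 of all clones. Since the choice raised this value, it is no support for a rise. The median lies between those of the 2 routes.

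The brightness of the clones in each stage was then compared between the 2 pairs of arrays on which that stage was measured, as the percentile of net intensity among the 1920 clones of the same channel. In stage 1 the median percentile of the 25 clones was 61.9 on the Stage2/Stage1 arrays and 75.6 on the Stage4/Stage1 arrays, and 19 of the 25 ranked higher on the latter (49.9% of all clones). In stage 2 the medians on its 2 pairs were 64.5 and 63.5, and in stage 3 they were 72.1 and 71.1. In stage 4 they were 77.3 on the Stage4/Stage3 arrays, which chose the clones, and 75.0 on the Stage4/Stage1 arrays. Of the 25 clones, 24 ranked higher on the former and 1 on the latter, where 50.2% of all clones did. Within clones, the median difference of the Stage4/Stage1 arrays from the other pair was 8.29 percentile points in stage 1 and -8.76 in stage 4. In stage 1 the clones thus mostly ranked higher on the Stage4/Stage1 than on the Stage2/Stage1 arrays, neither of which chose them. Their lower rank in stage 4 is set against arrays that chose them for a high stage 4. The choice itself favoured that difference, so it is a description only.

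**Figure D5:**
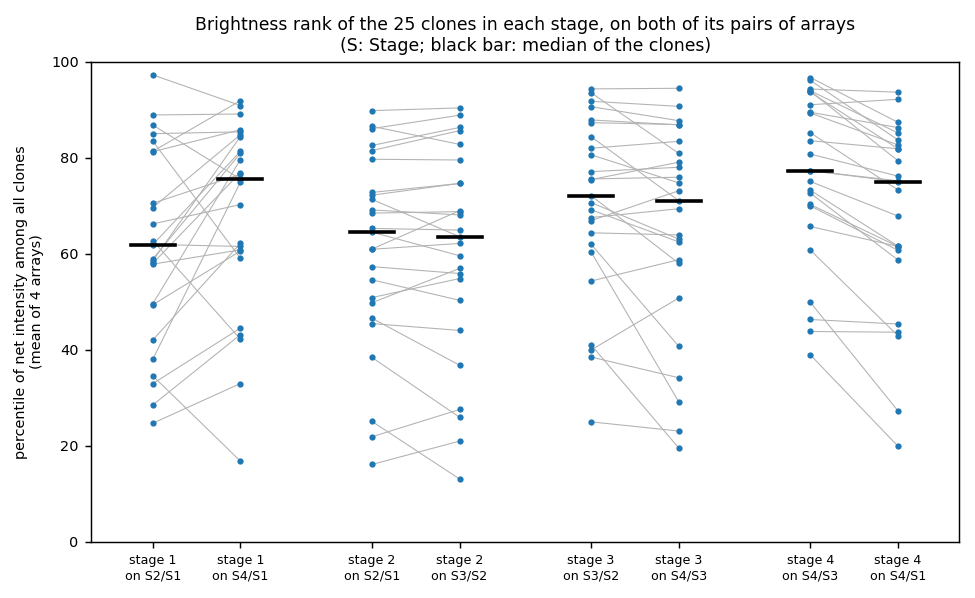
Percentile of net intensity of the 25 clones among all clones (y axis, mean of 4 arrays) in each stage on both of its pairs of arrays (x axis, S for Stage); lines join a clone within a stage and black bars are medians. Between its pairs, stage 1 runs mostly upward to the Stage4/Stage1 arrays (19 of 25 clones) and stage 4 mostly downward (24 of 25), with median differences of 8.29 and -8.76. The Stage4/Stage3 arrays chose the clones for a high stage 4, while neither pair of stage 1 was used in the choice.

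Over all 1920 clones, the correlation of mean ranks between the 2 pairs was 0.963 for stage 2, 0.954 for stage 3 and 0.943 for stage 4, beside the 0.896 for stage 1. On the Stage4/Stage1 arrays themselves, the ranks of stage 1 and stage 4 correlated at 0.991. Channels of 1 array share spots and all channels share probes, so these values are a description. For Myt01-002H11 the stage 1 percentile was 58.9 on the Stage2/Stage1 arrays and 80.9 on the Stage4/Stage1 arrays. For Myt01-007G11 it was 97.3 and 90.9, in the opposite direction. The part of this difference in the gap between the routes was not tested. In stage 3 Myt01-007G11 ranked at 93.55 on the Stage3/Stage2 and 80.9 on the Stage4/Stage3 arrays, and Myt01-009G11 at 61.97 and 40.7. Their stage 2 percentiles on the Stage3/Stage2 arrays were 88.87 and 50.3, above stage 3 on the Stage4/Stage3 arrays. The median absolute difference of the 25 clones in stage 3 was 4.31. The choice itself favoured a lower stage 3 on the Stage4/Stage3 arrays.

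Detection was counted by channel. Over both pairs of each stage, the 25 clones were well above background in 60% of the stage 1 channels, 78% in stage 2, 83.5% in stage 3 and 81.5% in stage 4. The shares over all clones were 38.5%, 56.9%, 54.1% and 48.0%. The number of the 25 clones found in all 8 channels of a stage was 5 in stage 1, 14 in stage 2, 15 in stage 3 and 15 in stage 4, beside 18.5%, 36.0%, 31.4% and 27.3% of all clones. All channels of stage 3, and those of stages 2 and 4 on 1 of their 2 pairs, come from the arrays that chose the clones. In all 32 channels 5 clones were well above background (16.5% of all clones), and 5 were so in under 16 of them. The clones were brighter than most, with 20 of the 25 above the median intensity of all clones and a median percentile of 70.9 (25.1 to 93.3). This intensity is a mean over all 16 arrays, 8 of which chose the clones, so it is a description only. The duplicate spots of the 25 clones differed by medians of 0.089 to 0.16 on the log2 scale over the 4 pairs, beside 0.11 to 0.15 for all clones.

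The 25 clones were spread unevenly over 20 plates of 96 clones, with the plate read from the clone name. Plate 002 held 7 of them, plate 015 held 4, and the others came from 10 plates with 1 or 2 each, while 8 plates held none. Plate 002 was singled out after these counts were seen. The 7 clones of plate 002 were printed in 3 of the 16 blocks. Their stage 4 over stage 3 means were 0.44 to 1.79 with a median of 1.32, against a median of 0.44 for the other 18, and 5 of the 6 clones with a mean of at least 1 in this step were on this plate. Plates 001, 002 and 003 also held the most clones that met the condition for stage 3 over stage 2, 32, 33 and 39 of 96, while for stage 4 over stage 3 they held 8, 13 and 3.

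On the arrays not used in the choice, the fitted changes of the plate 002 clones mostly had the same sign. For stage 2 over stage 1, 6 of 7 had a fitted change above 0 (-0.06 to 0.38), beside 45.1% of all clones. For stage 4 over stage 2 through stage 1, 6 of 7 had one below 0 (-0.41 to 0.09), while 54.5% of all clones were above 0. The route subtracts the first change, so the 2 counts are not separate. None of these changes passed the test, and no test of plate 002 against the other clones was made. On the Stage2/Stage1 arrays stage 1 was well above background on no array in Myt01-002A11, Myt01-002E03 and Myt01-002H11. In the other plate 002 clones it was so on 1 or 2 of 4 arrays. Among the 18 other clones 8 were above 0 for stage 2 over stage 1 and 7 below 0 through stage 1, with a median of 0.07 through stage 1. The plate 002 counts were 5 to 7 of 7 under the other settings that kept all 7 clones and a mean per pair, and both were 0 in the single loop model over all 16 arrays. What these clones have in common beside the plate cannot be read from the files, since none is paired with a gene.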

How the data were processed

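Mantle RNA of single males was labelled with Cy3 or Cy5, and the arrays were scanned and quantified by the authors with GenePix. The deposited scanner files hold raw intensity values of each spot and its background, and the series table deposited by the authors holds log2 ratios per spot, made per the methods with background offset and loess in limma (version not given in the sources used here). Read as later over earlier stage, its columns correlated at 0.864 to 0.978 with the scanner values used here (slopes 0.908 to 1.01), and their medians were -0.042 to 0.05, which settled scale, centring and direction. The table chose the 25 clones. Chosen clones and lists were set with earlier results of these data known.

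For the tests, scanner values were corrected with normexp (offset 50), normalized by print-tip loess and averaged over duplicate spots in limma 3.58.1 (R 4.3.3). Blank and alignment spots were left out. The 8 Stage2/Stage1 and Stage4/Stage1 arrays were fitted with 1 mean per pair (6 residual and 3.426 prior degrees of freedom), with two-sided p-values adjusted by Benjamini-Hochberg over 1920 clones. The study's methods fit all arrays in 1 loop, which was an alternative here because it includes the arrays that chose the clones. The script was tested on simulated data. Between 23.9% and 80.9% of clones per array exceeded background clearly in the Cy5 channel and between 24.2% and 67.6% in the Cy3 channel, with median raw intensities of 213 to 460.5 and 325 to 498. The number of arrays limits the precision. Named were the 2 clones with the largest sums, the 2 nearest on each side of the threshold, and per comparison up to 2 called clones in each direction or, with none called, the 2 highest and 2 lowest. Gene and marker lists could not be applied without gene names. Replicate numbers were not used to pair the arrays in this fit, and whether they do pair them cannot be told from the labels. The plots were made in Python 3.11.15 with matplotlib 3.10.9.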

Additional observations from a re-analysis of the deposited data

Results flagged for a closer look

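In 4 of the 100 sets of 4 arrays (25 clones in 4 pairs of stages) 1 array lay far from the other 3, by Dixon's criterion at 95%, which chance alone meets in about 1 set in 20. Myt01-015B04 had a log2 ratio of 1.305 on Stage3/Stage2 replicate 1, against 0.10 to 0.16 on the other 3, so that its mean of 0.43 for this step rested on that array. Its place among the 25 clones did so too, since the other 3 ratios are under 0.3. Its net intensity on that array was 7745.5 in stage 3 and 1619 in stage 2, against 162.5 to 334 on the other 3. On Stage2/Stage1 replicate 3 the same clone had 0.2363, against -0.00046 to 0.029. Myt01-015E06 had 0.46 on Stage3/Stage2 replicate 1, against 0.34 to 0.36. Myt01-018D11 had -0.02781 on Stage4/Stage1 replicate 4, against 0.012 to 0.019, all close to 0.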

How the results depend on the processing

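Among all clones, 148 were called in stage 2 vs stage 1 and 44 in stage 4 vs stage 2 through stage 1. The first count was 290 with median centring (68.6% higher, beside 52.7%), 83 with scaling between arrays, 93 without background correction, 62 at a log odds B above 0, and 50 to 155 leaving out 1 array. The second was 25 with scaling (36% higher, beside 50%), 15 without background correction, 27 at B above 0, 79 with all 16 arrays and a mean per pair, 167 in the loop model (61 of them higher), and 6 to 63 leaving out 1 array. Its share of higher calls was 14.3% with median centring and 66.7% with global loess, the deposited table and the replicate block. The 3 members called in stage 2 vs stage 1 became 6 with median centring and in the loop model, 1 with scaling and at B above 0, and 0 to 3 leaving out 1 array. The 1 member called in stage 4 vs stage 2 became 2 with global loess, the filter on dim clones (658 clones, 17 members), the replicate block, the dye term, or without both replicate 4 arrays (chosen after seeing the data), 3 with all 16 arrays and a mean per pair, 7 in the loop model, 0 with median centring, scaling or no background correction, and 0 to 3 leaving out 1 array. The members' median change in stage 2 vs stage 1 was 0.078 with global loess, 0.19 with median centring, 0.084 in the deposited table, 0.071 after the filter on dim clones and -0.31 in the loop model. In stage 4 vs stage 1 it was 0.20 in the loop model, and in stage 4 vs stage 2 -0.33 with median centring, -0.12 in the deposited table and 0.58 in the loop model. In the loop model stage 4 vs stage 1 turned to 0.096 for Myt01-019B07 and 0.47 for Myt01-002D03. With all 16 arrays the arrays that chose the members enter the fit, and for the other settings the cause was not tested. A threshold of 0.2 in both steps gave 40 members and 0.5 gave 4, and leaving out 1 array gave 20 to 34. No clone was called in stage 4 vs stage 1 under any of these settings.

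With the replicate number as a block, 115, 0 and 57 clones were called in the 3 comparisons, and Myt01-009G11 was called in stage 4 vs stage 2. Same-numbered arrays of the 2 tested pairs had correlations of -0.071 to 0.32 over clones, beside -0.24 to 0.23 for differently numbered ones. The highest value was that of the replicate 4 arrays. These correlations do not settle whether the numbers pair the arrays. The count of members whose interval lay below their sum, a measure added after seeing the data, was 19 to 22. A block for slide or scan date was not run, since none was found in the files used here. Dim spots limit the ratios of 9 members in stage 1.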
